A study of Mus musculus with 8 samples.

Results

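Crem, Creb1, Tbpl1, Tbp, Ybx2 and Tarbp2 encode factors that switch on genes in haploid male germ cells or hold the resulting mRNAs until they are translated. They were described here in mouse testis across 4 combinations of Terc and Ku86 genotype. Every probe set annotated to one of the 6 symbols was taken, which gave 9 of the 12488 probe sets on the array. A probe set is a group of short probes that together give 1 signal for a transcript. Crem had 2 probe sets, Creb1 had 3, and the other genes had 1 each. All 9 were annotated to a single gene. Of them, 8 were bright enough to enter the test, and Creb1 probe set 102671_at was not, because its mean lay under the limit of 38.1 intensity units used for all probe sets.

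Total RNA from testis was hybridised to 8 Affymetrix MG_U74Av2 arrays, 2 for each genotype. Wild type was labelled Ku86(+/+);Terc(+/+), Terc knockout was Ku86(+/+);G3-Terc(-/-), Ku86 knockout was Ku86(-/-);Terc(+/+), and double knockout was Ku86(-/-);G3-Terc(-/-). Terc is the RNA template of telomerase, G3 marks the 3rd generation bred without it, and Ku86, the product of Xrcc5, binds broken DNA ends in non-homologous end joining. The labels give no strain or age, and name the source as testis, whereas the scanner records call the samples germ cells. By the same records, the RNA of double knockout replicate 1 was pooled from 3 mice, and wild type replicate 1 was hybridised again after an earlier array had high background. They also give 3 scan days: day 1 held replicate 1 of the Ku86 knockout and of the double knockout, day 3 held wild type replicate 1, and day 2 held the other 5 arrays. Each scan day had its own chip lot, and the effects of day and lot cannot be told apart. Nothing states that replicates came from separate cultures or animals, so p-values measure only the spread between these arrays, which may be technical.

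As background, spermatids transcribe a large set of genes shortly after meiosis and then stop transcribing while chromatin is packed with protamines. CREM is a transcription factor of the cAMP response element family and drives many of these spermatid genes, and CREB1 is its more widely expressed relative. TBP is the general factor that recognises the TATA box, and TBPL1 is a TBP-like factor that does not bind the usual TATA box and is needed for spermatids to mature. YBX2 is a Y-box protein of germ cells that packages and stabilises stored mRNA, and as a DNA-binding protein it recognises an inverted CCAAT sequence. TARBP2 binds double-stranded RNA, works with Dicer, inhibits the kinase PKR and is needed for the translation of stored protamine mRNA.

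CREM, CREB1, TBP and YBX2 are known by the short DNA motifs they recognise. For this reason the 250 bases before the transcription start were read from RefSeq on build GRCm38.p6. They cover 5 of the 6 members in 6 windows, and no window of Crem was read. They are shown to let the reader see which letters stand before each start. Sequences run 5′ to 3′ on the strand of the gene, and capitals mark every match, on either strand, to the cAMP response element TGACGTCA, its shorter form TGACG, the inverted CCAAT box ATTGG and the TATA box TATAAA. The shorter form lies inside the full element. Ybx2 at chr11:69935649-69935898 (plus strand), Tarbp2 at chr15:102517942-102518191 (plus strand), Tbpl1 at chr10:22731448-22731697 (minus strand) and Tbp at chr17:15499638-15499887 (plus strand) were as follows.
Ybx2: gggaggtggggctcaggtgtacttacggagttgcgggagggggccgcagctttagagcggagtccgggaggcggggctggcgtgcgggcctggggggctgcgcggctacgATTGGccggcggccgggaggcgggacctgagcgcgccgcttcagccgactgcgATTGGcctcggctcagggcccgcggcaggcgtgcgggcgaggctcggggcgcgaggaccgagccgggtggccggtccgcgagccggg
Tarbp2: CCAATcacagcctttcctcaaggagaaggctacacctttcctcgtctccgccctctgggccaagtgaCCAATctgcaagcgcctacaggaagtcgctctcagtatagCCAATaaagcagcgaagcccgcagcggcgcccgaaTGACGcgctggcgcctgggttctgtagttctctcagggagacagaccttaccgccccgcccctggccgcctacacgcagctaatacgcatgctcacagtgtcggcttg
Tbpl1: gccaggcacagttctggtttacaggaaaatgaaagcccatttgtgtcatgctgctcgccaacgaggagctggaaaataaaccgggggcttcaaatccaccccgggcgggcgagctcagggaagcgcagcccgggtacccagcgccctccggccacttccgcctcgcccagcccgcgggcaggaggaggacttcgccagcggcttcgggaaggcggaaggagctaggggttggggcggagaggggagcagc
Tbp: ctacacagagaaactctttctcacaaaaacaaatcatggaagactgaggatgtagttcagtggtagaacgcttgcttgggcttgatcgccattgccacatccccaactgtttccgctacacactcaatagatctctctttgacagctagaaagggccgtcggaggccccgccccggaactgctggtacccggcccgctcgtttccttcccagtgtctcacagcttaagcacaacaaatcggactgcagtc
The window of Ybx2 held the inverted CCAAT box at 2 places, with 135 and 82 bases between the motif and the start. The window of Tarbp2 held it at 3 places in the opposite orientation, 245, 178 and 138 bases from the start, and held the short response element 103 bases from the start. The windows of Tbpl1, Tbp and Creb1 (chr1:64532554-64532803, plus strand) and a second window of Ybx2 held none of the 4 motifs. Over all 32851 windows of this length, 33.85% held the CCAAT box, 17.765% the short response element, 12.368% the TATA box and 1.546% the full response element. Of the 6 member windows, 2 held the CCAAT box, 1 the short response element, and 0 either of the other motifs. A match is only a run of letters and was not read as a binding site.

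Signals were intensities in arbitrary units, scaled by the authors. The mean of each array without its top and bottom 2% of probe sets was 199.5 to 199.9, while the median was lowest, at 49.65, on wild type replicate 1 and highest, at 73.0, on Terc knockout replicate 2. Between 15.6% and 26.0% of probe sets lay at or under the floor of 11.8 that was set before taking log2. Xrcc5 probe set 96063_at read 259.0 to 458.8 on the 4 arrays labelled Ku86(-/-) and 11.1 to 75.6 on the others, which is opposite to a lost transcript. The position of its probes is not known here, so it cannot check the deletion, and groups below are the arrays labelled with each genotype. A second Xrcc5 probe set read at most 3.4, and Terc had no probe set. The arrays carried markers of testis cells: 8 of 8 elongating spermatid markers and 11 of 12 Sertoli cell markers stood above the floor on every array. Of the elongating spermatid markers Prm2 was by far the dimmest, at 45.6 to 155.4.

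Tarbp2 had the lowest difference of the 8 tested probe sets in each comparison with wild type, although none of them passed the test. In wild type it read 2157.5 on replicate 1 and 1475.2 on replicate 2. On the Terc knockout arrays it read 1062.8 and 1276.9, on the Ku86 knockout arrays 1560.6 and 1242.2, and on the double knockout arrays 1057.8 and 1068.7. Both wild type arrays thus lay above all 4 arrays without Terc, and the Ku86 knockout arrays lay on either side of the lower wild type array. From high to low the means were 1816 ± 482 in wild type, 1401 ± 225 in the Ku86 knockout, 1170 ± 151 in the Terc knockout and 1063 ± 7.71 in the double knockout (SD, n = 2 each). Each pair of neighbours in that order overlapped.

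On the log2 scale Tarbp2 was -0.61 ± 0.22 (SE) in the Terc knockout relative to wild type, with a 95% interval from -1.10 to -0.13. That is 1.53-fold lower, with an unadjusted p of 0.0167 and a Benjamini-Hochberg adjusted p of 0.672 from limma over all 7282 probe sets tested. In the double knockout it was -0.75 (interval -1.23 to -0.27), or 1.68-fold lower, with an unadjusted p of 0.0056 and a limma adjusted p of 0.376. In the Ku86 knockout it was -0.36 (interval -0.84 to 0.12, limma adjusted p = 0.802). These 3 comparisons share the wild type arrays. All 19 alternatives in processing left all 3 differences under 0. Several of them, such as the filters and the variance trend, cannot change such a difference, and median centring can only lower it. Without wild type replicate 1, the brighter array and the only one of its scan day, they were -0.34, -0.08 and -0.47 for Terc, Ku86 and double knockout. Within scan day 2, where each genotype had at least 1 array, they were -0.34, -0.25 and -0.47.

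The 4 arrays without Terc averaged 1117 ± 107 for Tarbp2 and the 4 with Terc 1609 ± 390 (SD, n = 4 each). The lowest array with Terc, at 1242.2, lay under the highest array without it, at 1276.9, so the groups overlapped by that pair of arrays. The fitted difference was -0.50 ± 0.16 (SE) on the log2 scale, with a limma adjusted p of 0.894. An exact two-sided permutation test over 70 groupings gave p = 0.0571, against a smallest possible p of 0.0286. After adjustment over the 18 such tests, 9 probe sets for each of the losses of Terc and Ku86, the exact permutation p was 0.686. Loss of Ku86, again 4 arrays against 4, gave -0.24 for Tarbp2 (limma adjusted p = 0.910).

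Mean summed signals of Sertoli, peritubular and vascular, spermatogonial, Leydig cell and epididymal markers were lowest in wild type and highest in the double knockout. That is the reverse of the order of Tarbp2, and their part in it was not tested. Of the 3 epididymal markers on the array, 1 was above the floor on every array. Macrophage, erythroid, spermatocyte, round spermatid and elongating spermatid markers did not follow that order. For Leydig cell and epididymal markers the top place of the double knockout rested on 1 array. Its other array lay under the highest Terc knockout array and the highest Ku86 knockout array. The summed signal of 12 Sertoli cell markers was 2014 to 2038.5 in wild type, 2847 to 3065.5 in the Terc knockout, 2237 to 3212 in the Ku86 knockout and 3594 to 4405 in the double knockout. The 12 peritubular and vascular markers summed to 1614.5 to 1771, 2335 to 2561, 2054 to 2607 and 2771 to 3121 in the same order, with 10 of 12 above the floor on every array. Spermatogonial markers, 5 of 8 above the floor on every array, summed to 757.5 to 764.3, 977 to 1028, 811 to 1015 and 1156 to 1445. The 6 round spermatid markers summed to 14820 to 15459 in wild type, 11283 to 13776, 11567 to 15122 and 11610 to 15276 in the mutants, and the 8 elongating spermatid markers to 67169 to 77492, 73517 to 80213, 72016 to 74826 and 65748 to 73745. Macrophage markers summed to 648.7 to 683.8 in wild type, 681.9 to 747.3 in the Terc knockout, 591.9 to 684.9 in the Ku86 knockout and 667.7 to 699.4 in the double knockout. Leydig cell markers summed to 829.8 to 1006, 990.8 to 1544.1, 794.4 to 1181.8 and 1039.7 to 1799.8 in the same order, and erythroid markers to 2349.2 to 3105.5, 1614.7 to 3359.8, 964.8 to 2532.8 and 1360.1 to 1436.6. Spermatocyte markers summed to 16758 to 21434 over all arrays. Epididymal markers summed to 84 to 97.8 in wild type, 99.6 to 112 in the Terc knockout and 65.1 to 126.8 in the Ku86 knockout. In the double knockout they summed to 60 to 156, the lowest and the highest of all arrays. No marker in these lists was listed at 0, and Sycp3 of the spermatocyte list was at or under the floor on every array. In RNA labelled as testis, fewer cells of a type and less RNA per cell cannot be told apart.

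**Figure D1:**
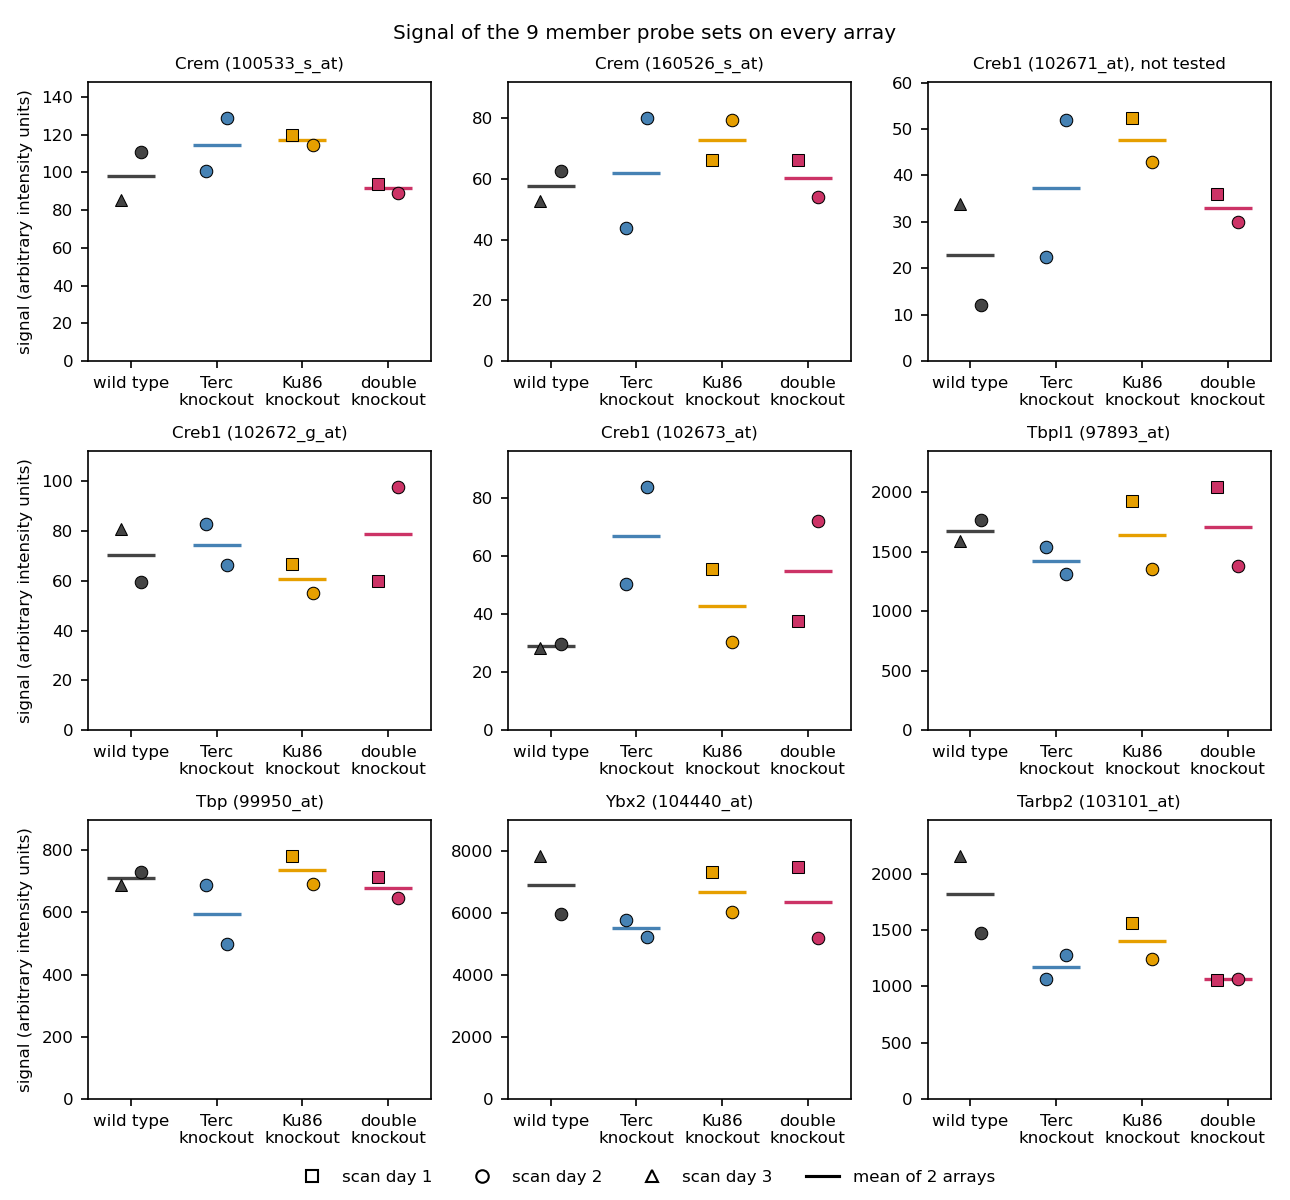
Signal of the 9 probe sets in arbitrary intensity units (vertical axis, linear, from 0) on each of the 8 arrays by genotype. Symbols give the scan day and bars the mean of 2 arrays. Tarbp2 reads 2157.5 and 1475.2 in wild type and between 1057.8 and 1276.9 on the 4 arrays without Terc, while the highest of the 8 arrays of Ybx2 is 1.51-fold its lowest.

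Ybx2, the mRNA-packaging Y-box protein, read 7825.0 and 5960.9 in wild type. The Terc knockout arrays read 5771.5 and 5226.9, the Ku86 knockout arrays 7307.8 and 6014.3, and the double knockout arrays 7480.6 and 5174.2. Replicate 1 was the brighter array in all 4 genotypes, by 0.14 to 0.53 on the log2 scale, and the highest and lowest of the 8 arrays differed 1.51-fold. The means were 6893 ± 1318 in wild type, 6661 ± 915 in the Ku86 knockout, 6327 ± 1631 in the double knockout and 5499 ± 385 in the Terc knockout (SD, n = 2 each). Only the Terc knockout lay wholly under wild type, and each pair of neighbours in that order overlapped. On the log2 scale the Terc knockout was -0.31 ± 0.20 (SE, limma adjusted p = 0.687), the Ku86 knockout -0.04 and the double knockout -0.13. Without wild type replicate 1 the Terc knockout difference was -0.12, the same value as within scan day 2.

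TBP-like factor Tbpl1 read 1587.4 and 1764.2 in wild type, 1543.5 and 1308.3 in the Terc knockout, 1924.7 and 1355.8 in the Ku86 knockout and 2044.5 and 1379.2 in the double knockout. The 2 highest values were the 2 arrays of scan day 1, and within the Ku86 and double knockouts the day 1 array exceeded the day 2 array by 0.51 and 0.57 on the log2 scale. The means were 1712 ± 470 in the double knockout, 1676 ± 125 in wild type, 1640 ± 402 in the Ku86 knockout and 1426 ± 166 in the Terc knockout (SD, n = 2 each). Each pair of neighbours in that order overlapped, and only the Terc knockout lay wholly under wild type. The Terc knockout difference was -0.24 ± 0.23 (SE, limma adjusted p = 0.783), and quantile normalization brought it to -0.08. The double knockout difference was 0.00 for all arrays and -0.36 within scan day 2, and that of the Ku86 knockout was -0.05 for all arrays and -0.38 within scan day 2.

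Tbp, the general TATA-binding factor, read 689.4 and 730.5 in wild type, 689.0 and 497.7 in the Terc knockout, 781.2 and 692.3 in the Ku86 knockout and 713.8 and 644.5 in the double knockout. The lowest array was Terc knockout replicate 2, and the other Terc knockout array lay just under the lower wild type array. The means were 737 ± 62.9 in the Ku86 knockout, 710 ± 29.1 in wild type, 679 ± 49.0 in the double knockout and 593 ± 135 in the Terc knockout (SD, n = 2 each). Neighbours in this order overlapped. The Terc knockout difference was -0.28 ± 0.22 on the log2 scale (SE, limma adjusted p = 0.727), and leaving out Terc knockout replicate 2 brought it to -0.04. The 4 arrays without Terc were -0.20 relative to the 4 with it (exact permutation p = 0.114, two-sided).

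Crem was measured by 2 probe sets whose suffix marks probes shared by several transcripts, and activator and repressor forms of CREM were not separated. Probe set 100533_s_at read 85.4 and 110.6 in wild type, 100.5 and 128.8 in the Terc knockout, 119.8 and 114.6 in the Ku86 knockout and 93.9 and 89.2 in the double knockout. Both Ku86 knockout arrays were above wild type, and both double knockout arrays were under the Terc knockout arrays. The means were 117 ± 3.68 in the Ku86 knockout, 115 ± 20.01 in the Terc knockout, 98 ± 17.8 in wild type and 91.6 ± 3.32 in the double knockout (SD, n = 2 each). Neighbours in that order overlapped. Relative to wild type the Ku86 knockout was 0.27 (limma adjusted p = 0.849), the Terc knockout 0.23 (limma adjusted p = 0.841) and the double knockout -0.09 (limma adjusted p = 0.974). The interaction, which asks whether loss of both differs from the sum of the single losses, was -0.58 ± 0.44 (SE, limma adjusted p = 0.875).

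The second Crem probe set, 160526_s_at, read 52.6 and 62.5 in wild type, 43.8 and 80.1 in the Terc knockout, 66.4 and 79.5 in the Ku86 knockout and 66.4 and 54.0 in the double knockout. The Ku86 knockout arrays again lay above both wild type arrays, while the Terc knockout arrays lay on either side of them. Its means were 57.55 ± 7.0 in wild type, 60.2 ± 8.77 in the double knockout, 61.95 ± 25.7 in the Terc knockout and 72.95 ± 9.26 in the Ku86 knockout (SD, n = 2 each), and neighbours overlapped. The Ku86 knockout difference was 0.34 on the log2 scale (limma adjusted p = 0.867), with an interaction of -0.33. The Ku86 knockout differences of the 2 Crem probe sets kept their sign in every alternative that tested them, and after median centring they were 0.04 and 0.11. The Terc knockout difference of 100533_s_at turned to -0.10 and that of 160526_s_at to -0.28 under the same centring.

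Creb1 read at most 97.8 on any array, and its 3 probe sets were each brightest in a different genotype. Probe set 102673_at read 28.3 and 29.6 in wild type, 50.3 and 83.9 in the Terc knockout, 55.6 and 30.3 in the Ku86 knockout and 37.7 and 72 in the double knockout. All 6 mutant arrays were above both wild type arrays, the nearest of them, Ku86 knockout replicate 2, only just. The means were 28.95 ± 0.919 in wild type, 42.95 ± 17.9 in the Ku86 knockout, 54.85 ± 24.3 in the double knockout and 67.1 ± 23.8 in the Terc knockout (SD, n = 2 each), and neighbours among the mutants overlapped. The Terc knockout difference was 1.17 ± 0.56 on the log2 scale (SE, interval -0.06 to 2.39, limma adjusted p = 0.672), that of the double knockout 0.85 (limma adjusted p = 0.741) and that of the Ku86 knockout 0.50 (limma adjusted p = 0.847). Across the 18 alternatives that tested it, which leave out the stricter filter, the Terc knockout difference ran from 0.77 to 1.54 and the double knockout difference from 0.38 to 1.31. Within scan day 2 the Ku86 knockout difference was 0.03, and the Terc and double knockout differences were 1.13 and 1.28.

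Probe set 102672_g_at of Creb1 read 81.0 and 59.7 in wild type, 82.9 and 66.3 in the Terc knockout, 66.7 and 55.1 in the Ku86 knockout and 60 and 97.8 in the double knockout. Every genotype overlapped with wild type, and the differences were 0.09, -0.20 and 0.14 for Terc, Ku86 and double knockout (limma adjusted p from 0.921 to 0.974). Its means were 60.9 ± 8.20 in the Ku86 knockout, 70.35 ± 15.1 in wild type, 74.6 ± 11.7 in the Terc knockout and 78.9 ± 26.7 in the double knockout (SD, n = 2 each). The untested probe set 102671_at read 33.8 and 12.1 in wild type, 22.5 and 52.0 in the Terc knockout, 52.4 and 42.9 in the Ku86 knockout and 36.1 and 29.9 in the double knockout. Its Ku86 knockout arrays were above wild type, and its lowest array was close to the floor of 11.8. Over loss of Terc, 4 arrays against 4, 102672_g_at differed by 0.21 (0.03 to 0.39 over the 17 alternatives that gave a value) and 102673_at by 0.76, and the difference between the probe sets was not tested. No Creb1 probe set passed the test in any comparison.

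**Figure D2:**
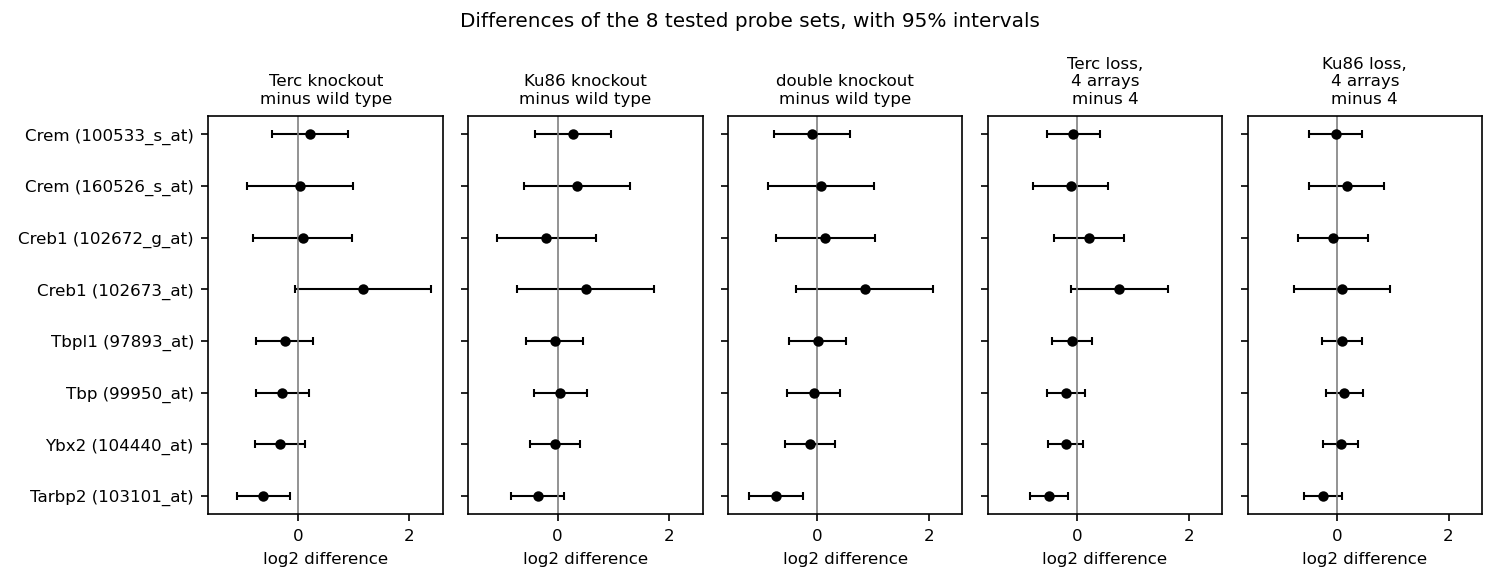
Log2 differences of the 8 tested probe sets (points) with 95% intervals from limma (lines), in the comparisons of each knockout with wild type and in the losses of Terc and of Ku86 over 4 arrays against 4. The intervals of Tarbp2 lie under 0 in the Terc knockout, the double knockout and Terc loss, and all other intervals cross 0.

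The first comparison, Terc knockout against wild type, concerns loss of the telomerase RNA alone. Limma called 0 of the 8 member probe sets at an adjusted p under 0.05, against 0.0275% of all tested probe sets, and 1 member, Tarbp2, had an unadjusted p under 0.05, against 7.06% of all. Groups did not overlap for 5 of 8, against 37.7% of all: Creb1 102673_at was higher, where 25.5% of all tested probe sets were, and Tbpl1, Tbp, Ybx2 and Tarbp2 were lower, where 12.2% of all were. For Tbp and Tbpl1 the nearest arrays were close, at 689.0 against 689.4 and at 1543.5 against 1587.4. All 4 differences stayed under 0 in every one of the 19 alternatives. The ranges were -0.57 to -0.08 for Tbpl1, -0.61 to -0.04 for Tbp, -0.65 to -0.12 for Ybx2 and -0.95 to -0.34 for Tarbp2. Several alternatives cannot change such a difference, among them the filters, the variance trend and leaving out arrays of other genotypes. Median centring can only lower it, so the count of alternatives overstates how far the sign was tried. The members' median was -0.09 and that of all tested probe sets 0.11, which quantile normalization brought to 0.00.

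The second comparison, Ku86 knockout against wild type, concerns by its labels the loss of Ku86 alone. Limma called 0 of 8 members, against 0.0412% of all, and 0 had an unadjusted p under 0.05, against 5.9% of all. Groups did not overlap for 3 of 8, against 38.1% of all, namely both Crem probe sets and Creb1 102673_at, all of them higher, where 24.4% of all were, while 0 were lower, where 13.7% of all were. Tbpl1, Tbp and Ybx2 differed by -0.05, 0.05 and -0.04, with 95% intervals of -0.56 to 0.46, -0.42 to 0.52 and -0.49 to 0.40. The data are compatible with any difference inside these intervals, and with 2 arrays per group larger ones can also go uncalled.

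The third comparison, double knockout against wild type, concerns the loss of both. Limma called 0 of 8 members, against 0.0275% of all, and Tarbp2 alone had an unadjusted p under 0.05, against 8.6% of all. Groups did not overlap for 2 of 8, against 36.4% of all: Creb1 102673_at was higher, where 23.2% of all were, and Tarbp2 was lower, where 13.2% of all were. The members' median was -0.03 and that of all tested probe sets 0.08.

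Averaged over the other genotype, loss of Terc gave 0 of 8 members called by limma, against 0.0137% of all, and Tarbp2 alone at an unadjusted p under 0.05, against 5.29% of all. Loss of Ku86 gave 0 called, against 0% of all, and 0 at an unadjusted p under 0.05, against 5.15% of all. In 0 of 8 members did the 4 arrays without Terc lie apart from the 4 with it, against 2.27% of all (1.55% higher and 0.714% lower). The same count for Ku86 was 0 of 8, against 3.13% of all (1.68% higher and 1.46% lower). For the interaction of both losses, 0 members were called, against 0% of all, and 0 had an unadjusted p under 0.05, against 5.04% of all. The largest interactions were -0.82 for Creb1 102673_at and -0.58 for Crem 100533_s_at (limma adjusted p = 0.895 and 0.875).

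**Figure D3:**
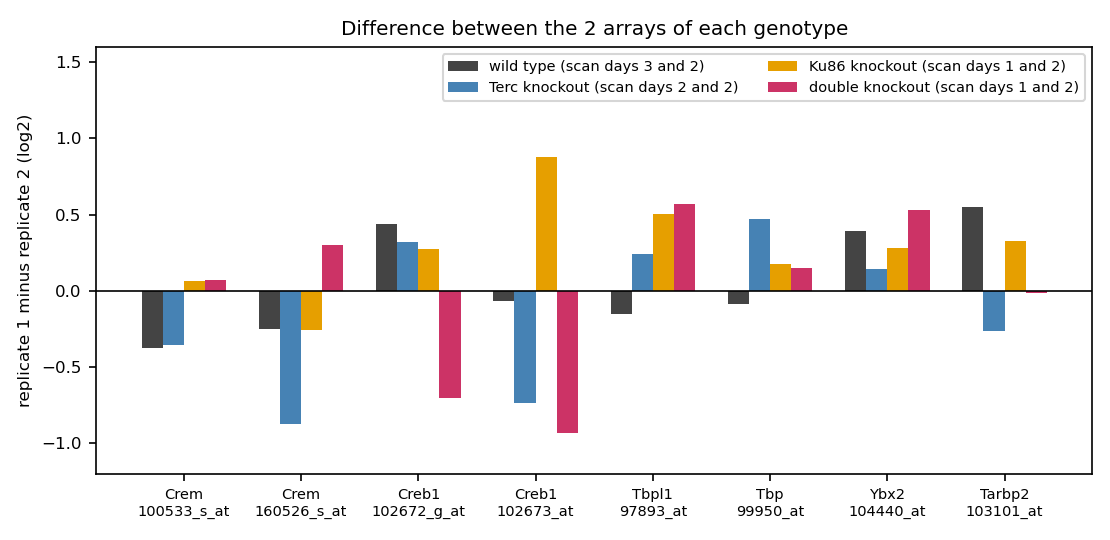
Log2 difference between the 2 arrays of each genotype for the 8 tested probe sets, with the scan days of the pair in the key. Tbpl1 differs by 0.51 and 0.57 in the Ku86 and double knockouts, whose arrays were scanned on days 1 and 2, and Creb1 102673_at by up to 0.93 in size.

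Differences within a genotype were as large as those between genotypes for most members. Creb1 102673_at differed between replicates by -0.74, 0.88 and -0.93 on the log2 scale in the Terc, Ku86 and double knockouts and by only -0.06 in wild type. Crem 160526_s_at differed by -0.87 in the Terc knockout, where Crem 100533_s_at differed by -0.36. Tarbp2 differed by 0.55 in wild type and by -0.01 in the double knockout, so its spread was widest in the group against which it was compared.

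Partners of CREM and CREB1 were described by a list of cofactors and kinases of which 13 of 24 genes were on the array and 13 probe sets of 11 genes were tested. Limma called 0 in each comparison with wild type, and 3, 1 and 2 had an unadjusted p under 0.05 in the Terc, Ku86 and double knockouts. The shares of all tested probe sets under that limit were 7.06%, 5.9% and 8.6%. The median differences were 0.26, 0.17 and -0.04, against 0.11, 0.10 and 0.08 for all tested probe sets. After median centring all 3 were under 0 (-0.08, -0.06 and -0.30), but that centring lowers all tested probe sets by the same amount in each comparison. After quantile normalization all 3 were above 0 (0.11, 0.15 and 0.06). Prkacb, a catalytic subunit of the cAMP-dependent kinase that activates CREB-family factors, had the highest difference in all 3. It read 91.2 and 80.2 in wild type, 169.1 and 244.4 in the Terc knockout, 138.0 and 235.9 in the Ku86 knockout and 206.0 and 250.8 in the double knockout. All 6 mutant arrays lay above wild type, with differences of 1.25, 1.08 and 1.41 ± 0.32 (SE each) and limma adjusted p of 0.672, 0.802 and 0.257. Rfx2, a transcription factor of late spermatocytes and spermatids, had the lowest difference without overlap, and read 2492.2 and 1845.3 in wild type and 1427.7 to 1744.7 on the 6 mutant arrays. Its differences were -0.54, -0.37 and -0.34 (limma adjusted p from 0.669 to 0.802). Camk4, a kinase that phosphorylates CREM, read 8.4 to 31.0 and was not tested, and the CREM coactivator Fhl5 and the related factor Atf1 were not analysed here.

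The general transcription machinery that TBP and TBPL1 engage was described by 19 tested probe sets of 17 genes, from 18 of 33 listed genes on the array. Limma called 0, and 1, 1 and 3 had an unadjusted p under 0.05 in the Terc, Ku86 and double knockouts, against 7.06%, 5.9% and 8.6% of all. The medians were -0.12, -0.11 and -0.05, below those of all tested probe sets, and stayed under 0 after quantile normalization (-0.10, -0.10 and -0.04). Median centring lowers every difference from wild type by construction, so it could not raise these 3 medians above 0. Without Terc knockout replicate 2 the first was 0.02, without wild type replicate 2 the second was 0.10, and without double knockout replicate 2 the third was 0.05. Gtf2a1, the large subunit of TFIIA, to which TBP and TBPL1 both bind, read 147.4 to 291.6 and differed by 0.06, 0.41 and 0.23. Taf10, a TBP-associated subunit of TFIID, read 1841.9 and 1193.2 in wild type and 825.8 and 1038.2 in the double knockout, a difference of -0.68 that was the lowest of the list there (limma adjusted p = 0.497). Taf10 was, like Tarbp2, brightest on wild type replicate 1. Gtf2h1, a TFIIH subunit, had the highest double knockout difference at 0.64, from 366.7 and 448.9 in wild type to 684.6 and 582.0 (limma adjusted p = 0.469). In the Terc and Ku86 knockouts the extremes among probe sets without overlap were Taf8 (0.31 and 0.85) and Taf6 (-0.61 and -0.76), both subunits of TFIID, with limma adjusted p of 0.681 to 0.908. With overlapping groups included, Polr2a 103055_r_at was highest in the Terc knockout, at 0.33.

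Storage, translation and processing factors that act on germ cell mRNA, as YBX2 and TARBP2 do, were described by 26 tested probe sets of 22 genes, from 25 of 35 listed genes. Limma called 0, and 0, 0 and 3 had an unadjusted p under 0.05, against 7.06%, 5.9% and 8.6% of all. The medians were 0.11, 0.11 and 0.08, against 0.11, 0.10 and 0.08 for all tested probe sets. They turned under 0 with scan day as a block (-0.07, -0.01 and -0.05) and without wild type replicate 1 (-0.07, -0.06 and -0.04). They did so too after median centring (-0.22, -0.12 and -0.18), which lowers all tested probe sets by the same amount in each comparison. Ybx1, the widely expressed Y-box protein, read 9544.3 to 11617.9 and differed by 0.15, 0.17 and 0.10. Ybx3, another Y-box protein of germ cells, read 3187.2 to 5538.7 and differed by -0.36, -0.24 and 0.01. Eif2ak2, the kinase PKR that TARBP2 inhibits, read 46.0 to 66.2 and differed by 0.34, 0.31 and 0.24. The RNA helicase Ddx25, which carries stored mRNA in spermatids, had 2 probe sets with differences between -0.09 and 0.15, and the RNA-binding protein translin (Tsn) read 39.3 to 104.1.

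Within that list Dazl, a translation regulator of early germ cells that is also on the spermatogonial marker list, had the highest difference in the Terc knockout (0.55) and the double knockout (0.87, limma adjusted p = 0.398). Its probe set 94750_at read 272.4 and 378.8 in wild type and 696.3 and 495.4 in the double knockout. The other Dazl probe set, 160357_at, differed by 0.51 in the Terc knockout and by 0.15, with overlapping groups, in the double knockout. Papolb, the testis poly(A) polymerase that extends stored mRNA tails, had the lowest Terc knockout difference without overlap at -0.43, with 1302.5 and 1307.5 in wild type and 1097.1 and 853.2 in the Terc knockout. Elavl1, an mRNA-stabilising protein, had a Ku86 knockout difference of 0.40, the highest among probe sets of the list whose groups did not overlap, with 118.4 and 116.0 in wild type and 159.4 and 150.1 in the Ku86 knockout. Khdrbs1, an RNA-binding protein also known as SAM68, was the lowest by the same limit in the Ku86 and double knockouts (-0.39 and -0.19). With overlapping groups included, the extremes were Ddx4 (0.54) and Strbp 103329_at (-0.46) in the Ku86 knockout. At the low end they were Khdrbs1 (-0.44) in the Terc knockout and Ago2 (-0.23) in the double knockout.

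Haploid genes known as targets of CREM or TBPL1 or as stored mRNAs were described by 30 tested probe sets of 26 genes, from 26 of 32 listed genes. Limma called 0, and 1, 0 and 0 had an unadjusted p under 0.05, against 7.06%, 5.9% and 8.6% of all. The medians were -0.05, -0.06 and -0.11, with 12, 10 and 7 of 30 above 0, against medians of 0.11, 0.10 and 0.08 for all tested probe sets. The list medians were -0.38, -0.30 and -0.38 after median centring, which in each comparison lowers all tested probe sets by the same amount. After quantile normalization they were 0.00, 0.01 and 0.00, against 0.00, 0.01 and -0.02 for all tested probe sets. The protamine and transition protein mRNAs, which TARBP2 and YBX2 are known to regulate, did not pass the test. Prm1 read 13783.2 to 18506.5 and differed by 0.18, 0.01 and -0.04, and Tnp2 read 15328.2 to 18561.5 and differed by 0.04, 0.00 and -0.09. Tnp1 160533_r_at read 5955.7 to 9781.3 and differed by 0.24, 0.25 and -0.09. Odf1, of the outer dense fibres of the tail, read 7441.8 to 9449.0 and differed by 0.07, 0.02 and 0.05. Smcp, of the mitochondrial sheath, read 6124.1 to 8355.7 and differed by -0.09, -0.06 and -0.13. Prm2 160528_at was dim, at 45.6 to 155.4, and the untested Prm2 probe set 161229_at read 1.1 to 2.5.

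Among probe sets of the haploid list whose groups did not overlap, the lowest were Ace, whose testis form is a CREM target, and the spermatid kinase Tssk1. Ace probe set 161224_f_at differed by -0.58 and -0.52 in the Terc and Ku86 knockouts (limma adjusted p = 0.672 and 0.802). Its suffix marks probes shared by similar sequences, as does that of Prm1 99589_f_at. The other tested Ace probe set, 160927_at, differed by -0.26 and -0.21 in these knockouts, with overlapping groups. Tssk1 differed by -0.42 in the double knockout (limma adjusted p = 0.642). By the same limit Prm3 162056_f_at was highest in the Ku86 and double knockouts, at 0.31 and 0.28, while the brighter Prm3 probe set 93242_at differed by -0.15 and -0.12. With overlapping groups included, Prm2 160528_at was highest in the double knockout, at 0.69, with 85.5 and 45.6 in wild type and 65.1 and 155.4 in the double knockout. RefSeq windows before the start were read for 22 of the 26 genes, 33 in all. Of these, 0 held the full response element, 5 (15.152%) the short form, 8 (24.242%) the CCAAT box and 4 (12.121%) the TATA box. Over all windows the shares were 1.546%, 17.765%, 33.85% and 12.368% in the same order. Windows of the same gene can overlap and repeat a match, and the difference in shares was not tested.

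**Figure D4:**
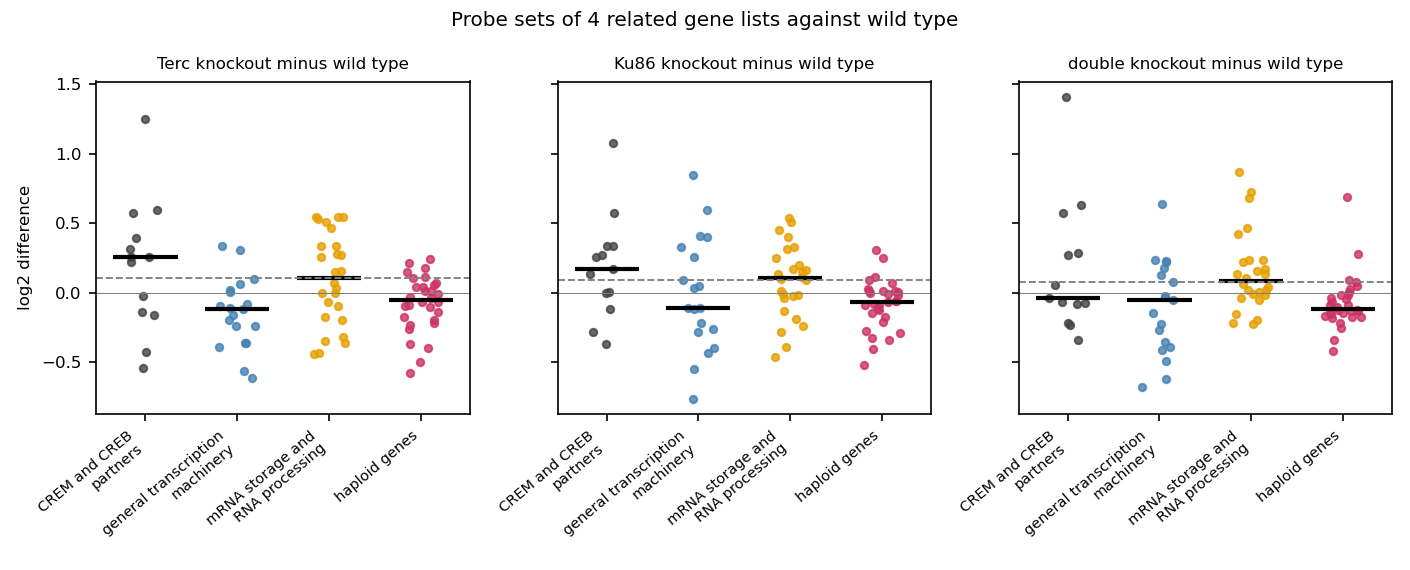
Log2 differences from wild type of the tested probe sets (points) of 4 related gene lists, with the list median (black bar) and the median of all tested probe sets (dashed line). The haploid list has medians of -0.05, -0.06 and -0.11, which quantile normalization brings to 0.00, 0.01 and 0.00, and the highest point in each panel is Prkacb, at 1.25, 1.08 and 1.41.

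The probe sets whose log2 signal followed each member most closely over the 8 arrays were listed by Pearson correlation, as a description without a test, since the 8 points share genotype, scan day and array scaling. For Tarbp2 they were Pdcd2l (0.96), Ehd1 (0.94) and Bad (0.94). For Ybx2 they were Csnk1d (0.97), Grina (0.97) and Rnf19b (0.97), and for Tbpl1 Mxi1 (0.98), Psmc2 (0.96) and Gapdhs (0.96). For Tbp they were Akirin1 (0.96), Drc1 (0.96) and Cfap20 (0.95). For Crem 100533_s_at they were Gm17811 (0.96), Arsa (0.96) and Stom (0.95), and for Creb1 102672_g_at Rora (0.94), Mrpl58 (0.92) and Nog (0.92). Correlations above 0.8 were common by this measure: 1.77% of tested probe sets reached that with Tarbp2 and 2.94% with Tbpl1, but 0.275% with Creb1 102672_g_at.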

How the data were processed

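Per the labels and the scanner records, testis RNA of 4 genotypes was hybridised to 8 arrays, with 15 micrograms of cRNA each. The authors deposited 1 linear intensity per probe set and array, scaled so that trimmed means matched between arrays. The software and background step were not given in the sources used here. Deposited text records were read only for scan day, chip lot and sample description.

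From the deposited intensities, log2 values were taken after raising those under the pooled 20th percentile to it (11.8). After leaving out 66 controls and probe sets whose mean log2 lay under that of the pooled 40th percentile (38.1), 7282 of 12488 remained. Names came from the platform annotation, in which 10855 probe sets had 1 symbol, 396 several and 1237 none. Limma 3.58.1 in R 4.3.3 (lmFit, eBayes with a trend) was fitted to all 8 arrays with 1 mean per genotype, two-sided, with a call where the p, adjusted by Benjamini-Hochberg across all 7282, was under 0.05. Scripts were tested on simulated data. The number of arrays limits the precision.

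The members and gene lists were chosen with earlier results of these data known. Named were all member probe sets, the targeted genes, 20 related genes of fixed roles (Gtf2a1l, Taf7l and Prkra were not analysed here), the highest and lowest probe set without overlap in each list and comparison with wild type, and the 3 closest probe sets by correlation. Ddx4, Strbp, Ago2, Polr2a, the Terc knockout value of Khdrbs1 and the double knockout value of Prm2, extremes with overlapping groups, were named after their values were seen. So were the other tested probe sets of Ace and Dazl. Alternatives covered scaling, floor, filter, variance trend, arrays in the fit, blocks for experiment number and for scan day, and each array left out. The fit within scan day 2 was chosen after seeing the data.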

Additional observations from a re-analysis of the deposited data

Results flagged for a closer look

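Crem 100533_s_at stood out because loss of Ku86 went opposite ways with and without Terc, and neither pair of groups overlapped. With Terc the Ku86 knockout arrays (119.8 and 114.6) were above wild type (85.4 and 110.6), and without Terc the double knockout arrays (93.9 and 89.2) were below the Terc knockout arrays (100.5 and 128.8). The test of the difference gave an interaction of -0.58 on the log2 scale with a limma adjusted p of 0.875, so it did not pass. On the other Crem probe set, 160526_s_at, the double knockout arrays (66.4 and 54.0) lay between the Terc knockout arrays (43.8 and 80.1). The Ku86 knockout and wild type did not overlap in 38.1% of all tested probe sets, and the share with both features was not counted.

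In 2 of 36 groups of 4 arrays checked, 1 array lay far from the other 3. The groups share the same 8 arrays and each holds 2 genotypes, and how often chance would give this was not tested. Creb1 102673_at read 55.6 on Ku86 knockout replicate 1, an array of scan day 1, while the other 3 arrays with Terc read 28.3 to 30.3. Tarbp2 read 1276.9 on Terc knockout replicate 2, while the other 3 arrays without Terc read 1057.8 to 1068.7.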

How the results depend on the processing

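No member probe set was called under any of the 19 alternatives, and the smallest limma adjusted p any reached was 0.152 (Tarbp2, double knockout, without wild type replicate 2). Of 48 member differences, 28 changed sign under at least 1 setting, which was 80 of 918 pairs of a difference and a setting, the fit within scan day 2 included. Medians of the 4 gene lists stayed within the spread between replicates in 205 cases and moved further in 23, all 12 after median centring among them. Median centring by construction lowered every member difference from wild type, since the median signal was lowest on the wild type arrays.

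The counts of all probe sets called were 2, 3 and 2 for Terc, Ku86 and double knockout against wild type, 1 for Terc loss and 0 for Ku86 loss and for the interaction. In that order of comparisons the counts that moved by over 1.5 times were as follows. Quantile normalization gave 0, 0 and 0 against wild type, and median centring 1, 1 and 1. The floor at the 5th percentile gave 0 for the Terc knockout, and the floor at the 40th percentile 1 for Ku86 loss. An offset without a floor gave 0 for the Ku86 knockout and 1 for Ku86 loss. No filter gave 9 for the Terc knockout, 1 for the double knockout, 4 and 2 for Terc and Ku86 loss and 8 for the interaction. The filter at the 60th percentile gave 0 for the Terc knockout and 1 for Ku86 loss. No variance trend gave 0 throughout. Fitting only the arrays compared gave 8 for the double knockout, and scan day as a block gave 1, 0 and 0 against wild type and 0 for Terc loss. Leaving out each array gave 0 to 4, 0 to 3 and 0 to 4 against wild type, 0 to 3 for Terc loss, 0 to 1 for Ku86 loss and 0 to 1 for the interaction.

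Experiment number as a replicate block gave 0, 0 and 0 against wild type and 1 for Terc loss, with 0 members called. Deviations of same-numbered arrays correlated by 0.0126 to 0.254, not all above 0.1, and the closest array shared the number for 4 of 8, so the numbers were not taken as a pairing.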
